A study of Mus musculus with 12 samples.

Results

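A set of 10 genes that mark the liver around the central vein or report Wnt signalling were followed in the livers of mice on a high-fat diet (HFD). They are Axin2, Glul, Oat, Slc1a2, Rhbg, Lect2, Tbx3, Rnf43, Znrf3 and Lgr5, chosen by symbol from the gene table of the study, and all 10 were found among its 23849 symbols. Liver mRNA of male C57BL/6J mice, 8 weeks old per the series design, was measured by RNA-seq in 12 libraries. All animals ate HFD for 6 weeks, and for the last 2 weeks received either vehicle (drinking water, labelled Control) or Libramed by daily oral gavage at ZT11. Libramed is the product that the study calls Policaptil Gel Retard, a gel-forming fiber blend. ZT, or Zeitgeber time, counts hours from lights on in a cycle of 12 h light and 12 h dark. Livers were taken at ZT0 or ZT12, which gave 4 groups with 3 libraries each (Control ZT0, Control ZT12, Libramed ZT0, Libramed ZT12). No group was fed a normal diet among the libraries used here, so HFD is shared by all of them. The labels call the 3 libraries of a group biological replicates.

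Hepatocytes along the liver lobule divide their work between the portal vein, where blood enters, and the central vein, where it leaves. Endothelial cells at the central vein release Wnt ligands and the R-spondin Rspo3, which keep β-catenin active in the nearest hepatocytes and switch on pericentral genes. Among these are genes that clear ammonia as glutamine, and genes that feed back on the Wnt pathway itself. Whole liver was sequenced, so fewer cells of a type and less RNA per cell cannot be told apart in any value given here.

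Promoter sequences of the members were searched for motifs in the DNA next to their start sites. Of the 10 genes, 6 were matched in RefSeq's promoter table (build GRCm38.p6), with 7 start sites since Rnf43 has more than 1. Of the 4 shown here, Axin2 and Oat changed with time of day in at least 1 comparison below, while Glul and Lect2 hold a match to a searched motif. Each is the 250 bases before the start site, 5′ to 3′ on the strand of the gene, with motif matches in capitals. The Axin2 stretch is chr11:108920099-108920348 (+ strand), that of Oat chr7:132576399-132576648 (− strand), that of Glul chr1:153899679-153899928 (+ strand) and that of Lect2 chr13:56548539-56548788 (− strand).
Axin2: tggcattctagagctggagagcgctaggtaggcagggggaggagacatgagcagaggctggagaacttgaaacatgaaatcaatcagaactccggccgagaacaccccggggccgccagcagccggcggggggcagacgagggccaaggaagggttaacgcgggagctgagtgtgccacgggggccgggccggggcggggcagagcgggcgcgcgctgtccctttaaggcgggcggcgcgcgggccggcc
Oat: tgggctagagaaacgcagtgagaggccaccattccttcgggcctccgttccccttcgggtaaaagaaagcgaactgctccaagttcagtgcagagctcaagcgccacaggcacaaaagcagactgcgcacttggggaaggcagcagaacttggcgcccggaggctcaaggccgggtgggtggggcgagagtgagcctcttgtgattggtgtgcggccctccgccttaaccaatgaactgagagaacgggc
Glul: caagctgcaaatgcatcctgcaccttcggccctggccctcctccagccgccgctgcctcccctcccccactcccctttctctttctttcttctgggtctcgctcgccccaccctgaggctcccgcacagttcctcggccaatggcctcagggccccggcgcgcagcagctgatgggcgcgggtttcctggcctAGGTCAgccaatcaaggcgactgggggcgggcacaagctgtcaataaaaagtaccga
Lect2: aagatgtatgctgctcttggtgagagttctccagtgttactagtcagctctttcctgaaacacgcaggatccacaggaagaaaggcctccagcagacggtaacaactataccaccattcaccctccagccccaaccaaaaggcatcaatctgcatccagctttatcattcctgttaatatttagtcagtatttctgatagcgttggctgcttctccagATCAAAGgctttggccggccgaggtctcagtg

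The motifs searched on both strands were 2 forms of the TCF/LEF site through which β-catenin acts (CTTTGAA and CTTTGAT), the E-box CACGTG bound by clock factors, and AGGTCA, the half-site of many nuclear receptors. None of them overlapped another in these genes. Lect2 held CTTTGAT on the reverse strand, printed as ATCAAAG, with its first printed base 32 bases before the start site. Slc1a2 held the same form on the reverse strand 207 bases before its start site. Glul held AGGTCA 57 bases before its start site. Axin2, Oat and both Rnf43 windows held none of these letters. Of 32851 promoter windows of this length, 7.48% held either TCF/LEF form, 6.02% the E-box and 14.0% AGGTCA. Such a match is a description of the sequence and was not tested as a binding site.

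The level of each gene is given in FPKM, a read count scaled to the length of the transcript and to the size of the library, which allows levels to be compared between genes per length. The libraries themselves kept to their labels for time. The summed FPKM of 7 evening clock genes lay between 22.7 and 57.8 at ZT0 and between 159 and 232 at ZT12. The table holds FPKM only, so the reads per library are unknown, but its low values gave a relative depth between 0.704 and 1.27 times that of Control ZT0 replicate 1. Libramed ZT12 replicate 3 stood apart for 5 muscle markers, whose summed FPKM was 47.9 there and between 0.943 and 1.59 in the other libraries. Comparisons used limma on log2(FPKM + 1), so a log2 fold change is a difference on that scale and understates the change of genes near 1 FPKM. A call means a Benjamini-Hochberg adjusted p below 0.05 over the 9806 symbols with a mean of at least 1 FPKM. All 10 members passed that minimum.

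Levels of the 10 genes ran from Oat down to Znrf3. Oat, the mitochondrial ornithine aminotransferase, had a mean of 509.7 ± 95.7 FPKM (SD, n = 12). Glul, glutamine synthetase, which fixes ammonia onto glutamate in the last hepatocytes before the central vein, had 373 ± 67.9 FPKM (SD, n = 12). Lect2, a secreted hepatokine, followed with 288 ± 30.3 FPKM (SD, n = 12). Oat exceeded Glul in 11 of 12 libraries and Glul exceeded Lect2 in 11 of 12, with overlapping ranges at both steps. Slc1a2, a glutamate transporter of the cell membrane, came next at 37.0 ± 6.43 FPKM (SD, n = 12). Lect2 was 7.78 times higher on average than Slc1a2, and the ranges of these neighbours did not overlap. Rhbg, an ammonia transporter, had 9.79 ± 3.17 FPKM (SD, n = 12) and its range did not overlap that of Slc1a2. Tbx3, a T-box transcription factor, had 7.38 ± 3.09 FPKM and Rnf43, a ubiquitin ligase that removes Frizzled receptors, 6.25 ± 1.75 FPKM (SD, n = 12 each). Rhbg exceeded Tbx3 in 10 of 12 libraries and Tbx3 exceeded Rnf43 in 7 of 12, so the order of the last pair differed by less than the spread between libraries. Axin2, a scaffold of the β-catenin destruction complex, had 1.60 ± 0.587 FPKM. Lgr5, an R-spondin receptor, had 1.58 ± 0.657 FPKM and Znrf3, the partner ligase of Rnf43, 1.32 ± 0.194 FPKM (SD, n = 12 each). Rnf43 exceeded Axin2 in each of the 12 libraries, though their ranges overlapped. Axin2 exceeded Lgr5 in 6 of 12 libraries and Lgr5 exceeded Znrf3 in 6 of 12, so these last genes had no order beyond the spread.

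**Figure D1:**
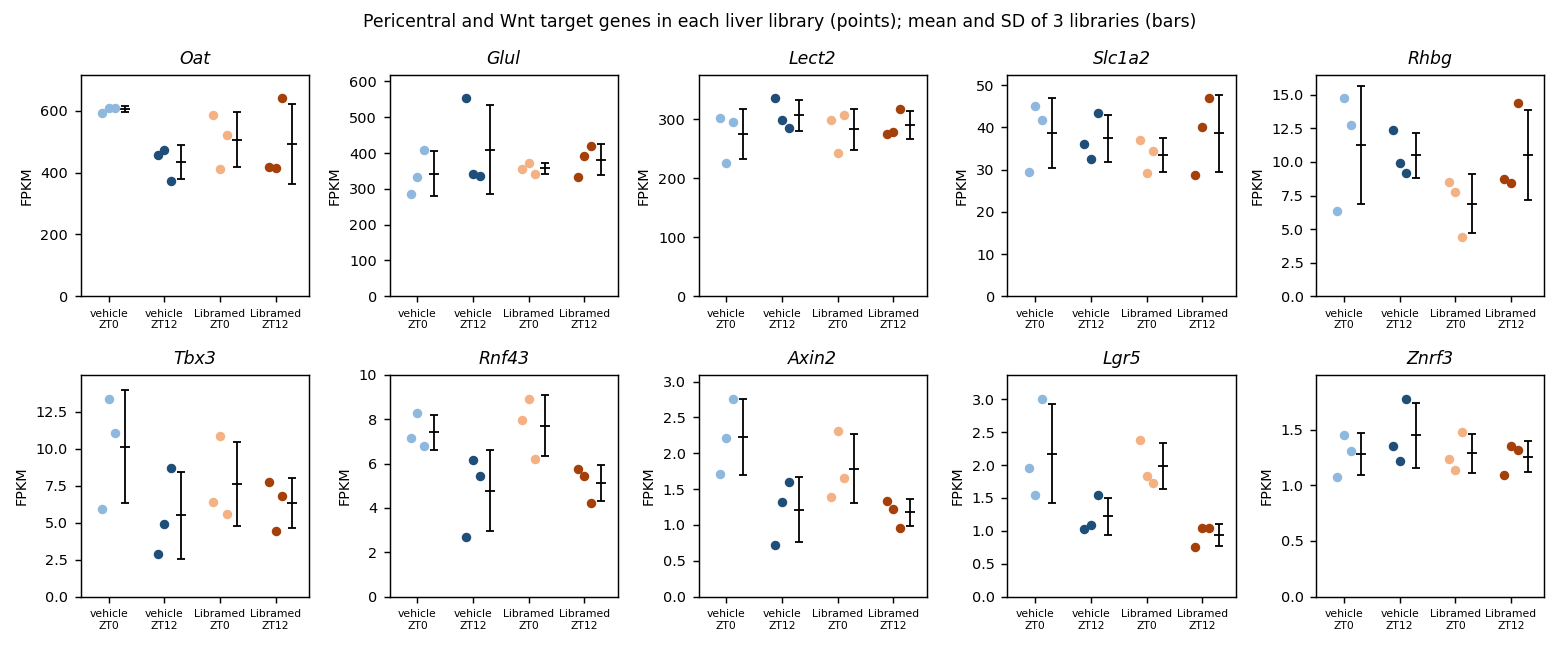
FPKM of each of the 10 genes (y axis, from 0) in the 4 groups (x axis); each point is a library and the black bar is the mean with SD of 3 libraries. Rnf43 lies lower in all ZT12 libraries than in all ZT0 libraries, Axin2 and Lgr5 are lower at ZT12 on average with some overlap, and Glul, Slc1a2, Lect2 and Znrf3 overlap throughout.

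Time of day was compared first over both treatments, in a fit of all 12 libraries with treatment as a term. Of the 10 genes 3 changed, Rnf43, Axin2 and Lgr5, all of them lower at ZT12. Among all genes tested, 30.0% were called in this comparison, 14.1% as lower and 15.9% as higher. With both directions counted together, the members (3 of 10) were called about as often as genes at large. All 3 calls were lower, beside 14.1% of all genes called in that direction, and this difference was not tested.

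Rnf43 (chromosome 11, 87662722 to 87735539, + strand; gene positions are those of GENCODE M21 on GRCm38) was the most abundant of them. It measured 7.15, 8.29 and 6.79 FPKM in Control ZT0 and 7.96, 8.93 and 6.21 FPKM in Libramed ZT0. At ZT12 it measured 2.69, 6.16 and 5.45 FPKM in Control and 5.76, 5.45 and 4.22 FPKM in Libramed. Every ZT12 library was below every ZT0 library, which held for 13.3% of all genes in either direction and for 5.84% as lower. The mean went from 7.55 ± 1.02 FPKM at ZT0 to 4.95 ± 1.28 FPKM at ZT12 (SD, n = 6 each). The log2 fold change was −0.55 (SE 0.155, 95% interval −0.89 to −0.21, limma adjusted p = 0.0206), and the exact permutation test within treatments gave p = 0.005, the smallest that its 400 arrangements can give. The call was lost without Libramed ZT12 replicate 3, the library that stood apart (−0.49, limma adjusted p = 0.0508), and without Libramed ZT0 replicate 2 (−0.50, limma adjusted p = 0.0522).

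Axin2 (chromosome 11, 108920349 to 108950783, + strand) gives a transcript that is widely used as a readout of β-catenin activity. It measured 1.70, 2.22 and 2.76 FPKM in Control ZT0 and 1.38, 2.32 and 1.66 FPKM in Libramed ZT0. At ZT12 it measured 0.713, 1.32 and 1.60 FPKM in Control and 1.34, 1.22 and 0.962 FPKM in Libramed. The groups did not overlap within either treatment, but Control ZT12 replicate 3 exceeded Libramed ZT0 replicate 1. Its level at ZT12 was 59.4% of that at ZT0. The log2 fold change was −0.45 (SE 0.126, 95% interval −0.73 to −0.18, limma adjusted p = 0.0193) and the exact permutation p was 0.005. Without Libramed ZT12 replicate 3 it was −0.42 (limma adjusted p = 0.0465).

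Lgr5 (chromosome 10, 115450311 to 115587780, − strand) measured 1.96, 1.54 and 3.01 FPKM in Control ZT0 and 2.38, 1.84 and 1.73 FPKM in Libramed ZT0. At ZT12 it measured 1.03, 1.10 and 1.54 FPKM in Control and 0.748, 1.04 and 1.04 FPKM in Libramed. The lowest Control ZT0 library and the highest Control ZT12 library were nearly equal, while the Libramed groups were well apart. The level at ZT12 was 52.0% of that at ZT0. The log2 fold change was −0.56 (SE 0.116, 95% interval −0.81 to −0.30, limma adjusted p = 0.00432), with an exact permutation p of 0.01. Without Libramed ZT12 replicate 3 it was −0.57 (limma adjusted p = 0.00874).

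The other 7 genes were not called over both treatments. Znrf3, though it shares its role with Rnf43, had a log2 fold change of 0.04 with a 95% interval of −0.13 to 0.21, and a level at ZT12 of 106% of that at ZT0. The difference between these partners was not tested. Glul had 0.16 (95% interval −0.13 to 0.45), Lect2 0.10 (−0.10 to 0.31) and Slc1a2 0.07 (−0.24 to 0.37). The intervals of Rhbg (0.26, −0.21 to 0.73), Tbx3 (−0.51, −1.07 to 0.05) and Oat (−0.27, −0.55 to 0.0017) were wider or reached further from 0. For Oat, limma adjusted p was 0.124 with all libraries and 0.0206 without Libramed ZT12 replicate 3, where the log2 fold change was −0.38. Across the 10 genes the median log2 fold change was −0.12, beside 0.0078 over all genes tested.

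Within each treatment, on 6 libraries, 1 member was called at a time and it was not the same one. An unadjusted p below 0.05 was reached by 4 members in vehicle (27.4% of all genes) and by 3 in Libramed (29.2%). In vehicle-treated mice, where 10.4% of all genes were called and 4.78% as lower, the called gene was Oat (chromosome 7, 132557478 to 132576398, − strand). It measured 595, 611 and 611 FPKM in Control ZT0 and 458, 474 and 372 FPKM in Control ZT12. The groups did not overlap, and the SD of the Control ZT0 libraries was 9.52 FPKM against 54.9 FPKM in Control ZT12. The log2 fold change was −0.48 (SE 0.112, limma adjusted p = 0.0413). This call was lost whenever any 1 of the 6 libraries was left out. In Libramed-treated mice Oat measured 588, 412 and 521 FPKM at ZT0 and 417, 417 and 641 FPKM at ZT12, with a log2 fold change of −0.06 (95% interval −0.54 to 0.42). The highest of these 6 values came from Libramed ZT12 replicate 3, without which the log2 fold change was −0.27 (limma adjusted p = 0.368).

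In Libramed-treated mice, where 12.4% of all genes were called and 5.36% as lower, the called gene was Lgr5. Its log2 fold change was −0.62 (SE 0.118, limma adjusted p = 0.0192), with no overlap between the groups. Without Libramed ZT12 replicate 3 it was −0.65 (limma adjusted p = 0.0474), and the call was lost without Libramed ZT0 replicate 1 or Libramed ZT12 replicate 2. In vehicle-treated mice Lgr5 had −0.49 (limma adjusted p = 0.136). Rnf43 and Axin2 had a log2 fold change below 0 in both treatments. Rnf43 had −0.60 in vehicle and −0.50 in Libramed, and Axin2 −0.56 and −0.35, with limma adjusted p between 0.0742 and 0.170. Without Control ZT12 replicate 1 the vehicle value of Rnf43 was −0.30, and without Libramed ZT0 replicate 2 the Libramed value of Axin2 was −0.22. That of Lgr5 in vehicle was −0.31 without Control ZT0 replicate 3. The ZT0 and ZT12 groups of Rnf43 and Axin2 did not overlap in either treatment, as was so for 33.2% of all genes in vehicle and 34.9% in Libramed. Those of Lgr5 overlapped in vehicle. Tbx3 had −0.81 in vehicle (95% interval −1.73 to 0.10) and −0.21 in Libramed (−0.81 to 0.39), and the vehicle value was −0.49 without Control ZT12 replicate 1.

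**Figure D2:**
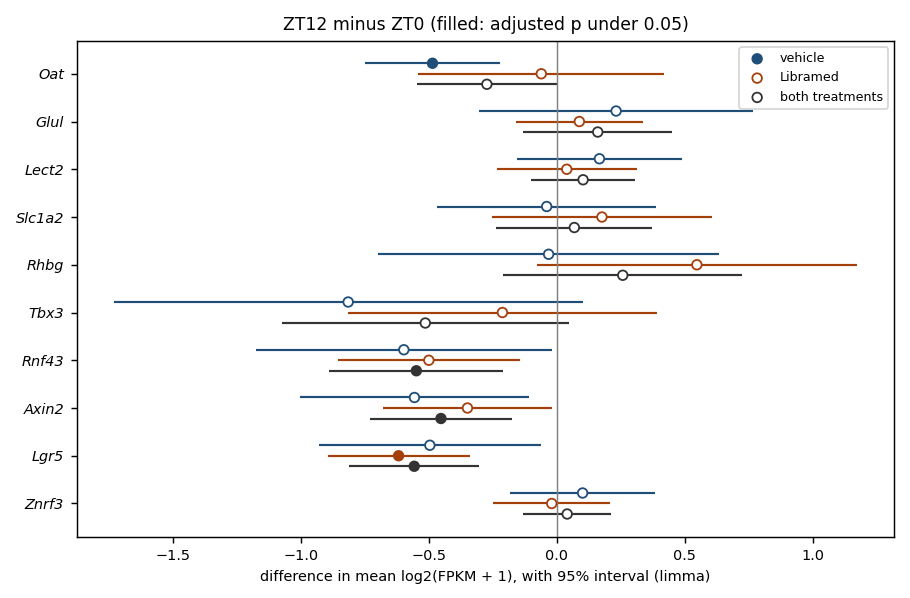
Difference between ZT12 and ZT0 in mean log2(FPKM + 1) (x axis, with 95% interval from limma) for each gene (y axis) in vehicle, in Libramed and over both treatments; filled points have an adjusted p below 0.05. Filled points are Oat in vehicle, Lgr5 in Libramed, and Rnf43, Axin2 and Lgr5 over both, all to the left of 0.

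Whether the time difference itself depended on the treatment was tested as the interaction of treatment and time. No member was called, and none of the 9806 genes was (0.0% called by limma, with 6.63%, or 650 genes, at an unadjusted p below 0.05). The calls of Oat in vehicle and of Lgr5 in Libramed are therefore not shown to differ between treatments. The interaction of Oat was 0.43 on the log2 scale (95% interval −0.12 to 0.97, limma adjusted p = 0.819, exact permutation p = 0.145). The exact permutation exchanged treatment labels within each time, which assumes no treatment effect at either time, so it does not test the interaction alone. Tbx3 had 0.60 (−0.52 to 1.72) and Rhbg 0.58 (−0.35 to 1.51). For Lgr5 the interaction was −0.12 (−0.63 to 0.39).

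Libramed was then compared with vehicle at each time, the question of what the product changes in the liver. None of the 10 genes was called at ZT0, at ZT12 or over both times, and none reached an unadjusted p below 0.05. Of all genes 0.0% were called in each of these comparisons, while 9.23% (905 genes) at ZT0, 6.74% (661) at ZT12 and 10.5% (1025) over both times had an unadjusted p below 0.05. The Cyber-T style test called 12 genes at ZT0 and 2 at ZT12.

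Glul (chromosome 1, 153899944 to 153909723, + strand) measured 286, 332 and 409.5 FPKM in Control ZT0 and 357, 373 and 342 FPKM in Libramed ZT0. At ZT12 it measured 553, 341 and 335 FPKM in Control and 334, 391 and 419.8 FPKM in Libramed. The groups overlapped at both times, and the single value of 553 FPKM gave Control ZT12 an SD of 124 FPKM, against 15.7 FPKM in Libramed ZT0. The treatment difference over both times was 0.0042 on the log2 scale, with a 95% interval of −0.29 to 0.30. Its row in the table also carries the symbol Mir8114, a microRNA gene that overlaps the start of Glul on chromosome 1 (153899926 to 153900036, GRCm38), so the 2 cannot be separated.

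Oat was the member whose Libramed ZT0 libraries all lay below all Control ZT0 libraries, as 9.94% of all genes did, with a log2 fold change of −0.27 (95% interval −0.60 to 0.06, limma adjusted p = 0.627), or −0.13 without Libramed ZT0 replicate 2. Rhbg measured 6.36, 14.7 and 12.7 FPKM in Control ZT0 and 8.51, 7.79 and 4.38 FPKM in Libramed ZT0, with overlap. Its log2 fold change of −0.61 was the one farthest from 0 among the 10 genes at ZT0, with a 95% interval of −1.37 to 0.16 (limma adjusted p = 0.636). It was −0.94 without Control ZT0 replicate 1, −0.39 without Control ZT0 replicate 2 and −0.35 without Libramed ZT0 replicate 3. At ZT12 the differences ran from −0.19 for Lgr5 (95% interval −0.48 to 0.09) to 0.25 for Tbx3 (−0.55 to 1.05). Over both times Axin2 had −0.11 (95% interval −0.39 to 0.17), Rnf43 0.09 (−0.25 to 0.43) and Znrf3 −0.06 (−0.23 to 0.12).

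**Figure D3:**
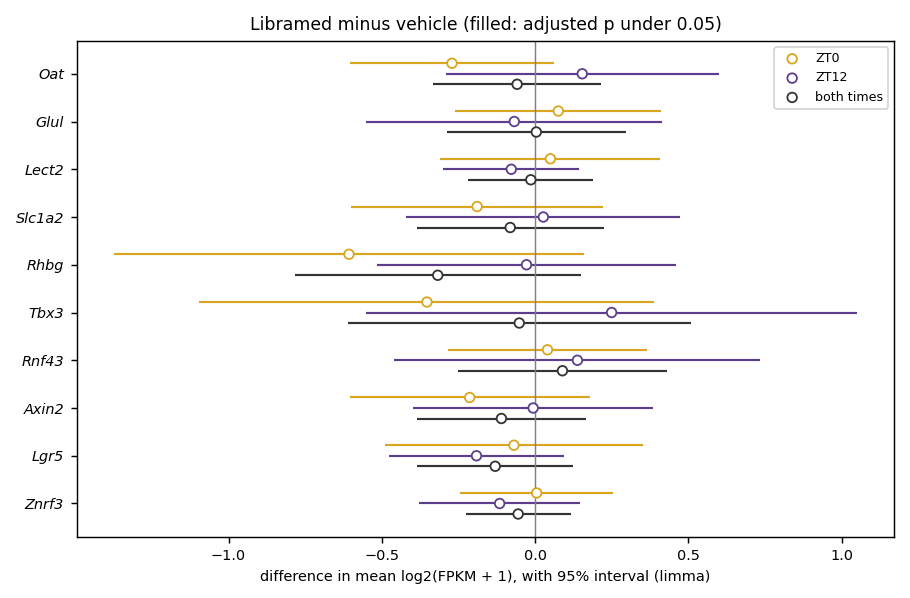
Difference between Libramed and vehicle in mean log2(FPKM + 1) (x axis, with 95% interval from limma) for each gene (y axis) at ZT0, at ZT12 and over both times. No point is filled, that is, none has an adjusted p below 0.05, and each interval includes 0.

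Other genes of the Wnt pathway were counted from fixed lists in the comparison of times over both treatments. The shares of all genes tested were 15.9% called as higher and 14.1% as lower. They are to be set beside each count here and in the next paragraph, unless others are given. Of 11 Wnt and R-spondin ligands, 2 had a mean of at least 1 FPKM, and 1 rose and 1 fell. Rspo3 measured 2.01, 1.35 and 2.35 FPKM in Control ZT0, 2.25, 2.01 and 1.79 FPKM in Libramed ZT0, 0.698, 0.991 and 0.945 FPKM in Control ZT12 and 0.733, 0.922 and 0.711 FPKM in Libramed ZT12. The ZT12 libraries were all below the ZT0 libraries, at 42.6% of their mean (log2 fold change −0.68, limma adjusted p = 0.000335). Wnt5b, a ligand best known for signalling without β-catenin, rose from 4.97 ± 0.941 to 8.36 ± 1.05 FPKM (SD, n = 6 each, log2 fold change 0.66, limma adjusted p = 0.00186). Wnt2, a ligand of the central vein endothelium, was below the minimum level and is named after its values were seen. They lay between 0.723 and 1.38 FPKM at ZT0 and between 0.191 and 0.589 FPKM at ZT12. With no minimum level, 10 of the 11 ligands were tested, of which 1 rose (Wnt5b) and 3 fell. Those that fell were Rspo3, Wnt2 (−0.50, limma adjusted p = 0.00292) and Wnt5a (−0.19, limma adjusted p = 0.0358). The others were not called, among them Wnt9b (−0.10, limma adjusted p = 0.101), named after its value was seen. That fit called 1495 of 17066 genes as higher and 1503 as lower, which are the counts to set beside these.

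Of 16 receptors and co-receptors, 9 were tested, of which 2 rose and 2 fell. Lrp5, a co-receptor for Wnt, fell from 17.6 ± 1.70 to 10.8 ± 1.46 FPKM (SD, n = 6 each, −0.66, limma adjusted p = 0.000486), and the Frizzled receptor Fzd5 fell by 0.31 on the log2 scale (limma adjusted p = 0.0128). Fzd4, another Frizzled receptor, rose by 0.43 (limma adjusted p = 0.00604) and the receptor kinase Ryk by 0.18 (limma adjusted p = 0.0497), a call that was lost in 15 of 19 alternatives. In the β-catenin destruction complex and its transducers 1 of 13 tested genes rose, Ctnnbip1, which blocks β-catenin from TCF (0.38, limma adjusted p = 0.00931). Among TCF/LEF factors and coactivators 1 of 10 fell, Pygo2 (−0.31, limma adjusted p = 0.00121). Of 8 other Wnt target genes tested 1 fell, Sp5, a transcription factor induced by β-catenin (2.39 ± 0.581 to 1.38 ± 0.454 FPKM, SD, n = 6 each, −0.51, limma adjusted p = 0.00852). The single secreted inhibitor tested, of 11 listed, was not called. The lists overlap in part, and this gene is also counted among the other Wnt target genes.

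Among other zonated genes, those called mostly rose, in a comparison that called 15.9% of all genes as higher and 14.1% as lower. Of 25 pericentral enzymes and transporters outside the 10 members, 10 rose and 2 fell at ZT12, with a median log2 fold change of 0.27 beside 0.0078 over all genes. The cytochrome P450 Cyp2a5 rose from 157 ± 40.3 to 574 ± 137 FPKM (SD, n = 6 each, 1.87, limma adjusted p = 3.29e-05), its electron donor Por by 2.27 (limma adjusted p = 3.93e-05) and the nuclear receptor Nr1i3 by 1.01 (limma adjusted p = 0.000142). Csad, an enzyme of taurine synthesis, fell by 1.17 (limma adjusted p = 0.00368) and the amino acid transporter Slc16a10 by 0.37 (limma adjusted p = 0.0190). Of 25 periportal genes, 11 rose and 2 fell, with a median of 0.27 as well. The 11 that rose became 7 without Control ZT0 replicate 1 or without Libramed ZT0 replicate 2, and the 2 that fell became 1 without any of 6 libraries (Control ZT0 replicate 3, Libramed ZT0 replicates 1 and 3, Control ZT12 replicate 3, Libramed ZT12 replicates 2 and 3). Of the pericentral list, the 10 that rose became 7 without Libramed ZT12 replicate 3, the library that stood apart for muscle markers. They became 8 without Libramed ZT12 replicate 2 or with quantile normalization. In the same list, 4 fell without Control ZT0 replicate 2. The urea cycle enzyme Asl rose by 0.97 (limma adjusted p = 1.80e-05), Uox, which oxidises urate, by 0.61 (limma adjusted p = 0.000467) and serine dehydratase Sds by 0.86 (limma adjusted p = 0.00213). Gldc of glycine cleavage fell by 0.64 (limma adjusted p = 0.000579) and Sdsl by 0.50 (limma adjusted p = 0.0304), the latter a call lost in 9 of 19 alternatives. Some pericentral genes belong to families of near-identical copies, whose values are uncertain because reads may be shared.

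Around Glul, Oat, Slc1a2 and Rhbg, none of which was called over both treatments, a wider list of ammonia, glutamate and glutamine genes was counted. Of 21 tested, 9 rose and 6 fell, beside 15.9% and 14.1% of all genes, with a median log2 fold change of 0.23. The transaminases Gpt2 and Gpt rose by 0.94 (limma adjusted p = 1.44e-05) and 0.57 (limma adjusted p = 0.000714), and proline dehydrogenase Prodh by 0.98 (limma adjusted p = 0.000113). The transporter Slc1a4 fell by 0.99 (limma adjusted p = 0.000928) and the glutathione synthesis enzyme Gclc by 0.52 (limma adjusted p = 0.00117).

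**Figure D4:**
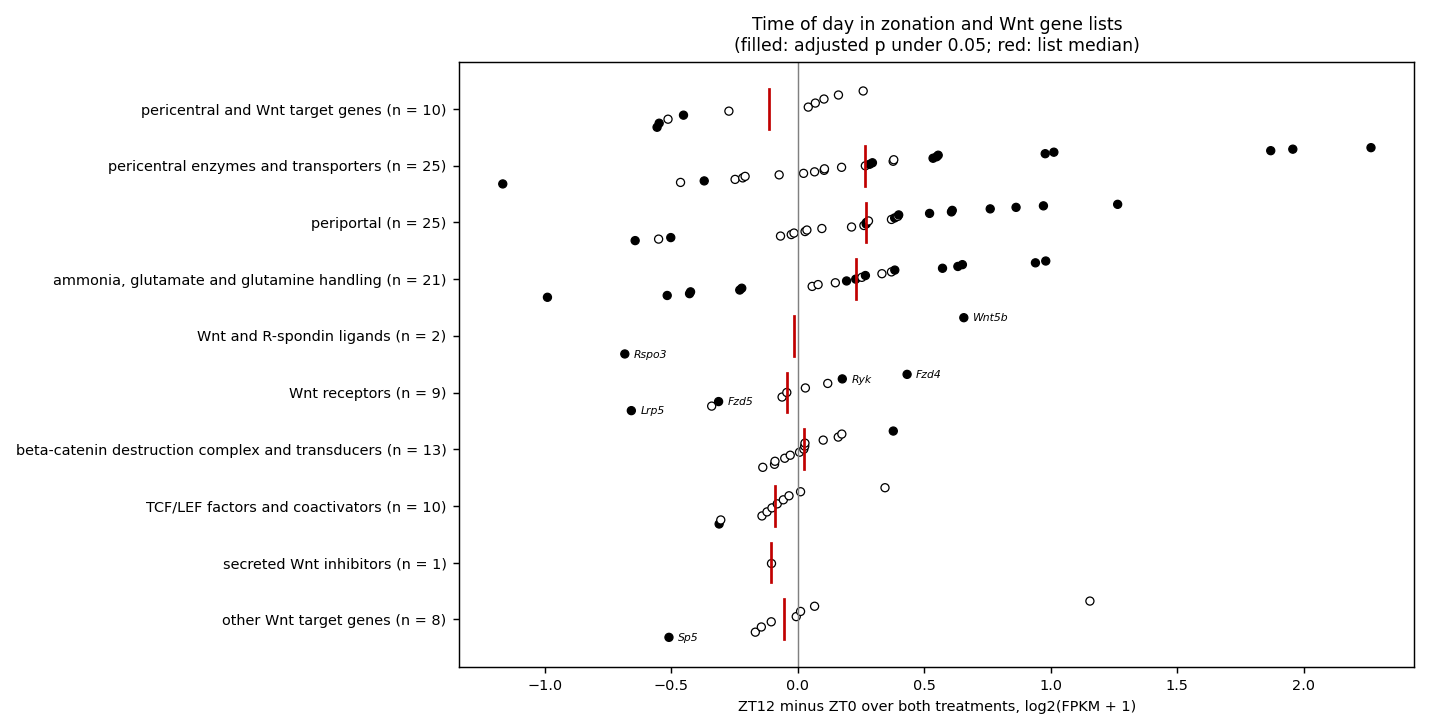
Difference between ZT12 and ZT0 over both treatments (x axis, log2(FPKM + 1)) for each tested gene of the fixed lists (y axis, with the number tested); filled points have an adjusted p below 0.05 and the red bar is the list median. The medians of the pericentral and periportal lists lie at 0.27, that of the 10 genes at −0.12.

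Markers of some other liver cells, the endothelial and stellate lists, were lower in the comparison in which Axin2, Lgr5, Rnf43 and Rspo3 fell. The summed FPKM of 12 endothelial markers lay between 41.2 and 62.8 at ZT0 and between 21.0 and 38.2 at ZT12, with no overlap, and 6 of the 8 tested fell while none rose. That of 10 stellate cell markers lay between 37.7 and 76.8 at ZT0 and between 27.3 and 51.7 at ZT12, and 6 of the 8 tested fell while none rose. In this comparison 14.1% of all genes tested were called as lower and 15.9% as higher. Macrophage markers, by contrast, had none of 6 tested called by limma (0 at an unadjusted p below 0.05), and the summed FPKM of 9 such markers lay between 25.0 and 51.6 at ZT0 and between 22.5 and 59.4 at ZT12. That of 9 cholangiocyte markers lay between 36.4 and 62.5 at ZT0 and between 33.0 and 51.2 at ZT12, and 1 of 5 tested fell, Sox9 (−0.51, limma adjusted p = 0.00415), named after its value was seen. No marker of these 4 lists was at 0 in every library. The summed FPKM of 8 hepatocyte markers overlapped between times, from 33834 to 47290 at ZT0 and from 31812 to 42305 at ZT12, with Alb listed at 0 in all libraries. Of the 7 hepatocyte markers tested 1 rose and 1 fell. Most of that sum came from Apoa1 (mean 24802 FPKM) and Ttr (7846 FPKM), named after their values were seen. The other sums were uneven too, with the highest means in Clec4g (endothelial, 19.2 FPKM) and Dcn (stellate, 36.8 FPKM). In the cholangiocyte and macrophage lists they were Spp1 (34.7 FPKM) and C1qa (12.9 FPKM), also named after their values were seen. The part of these cells in the results was not tested.

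**Figure D5:**
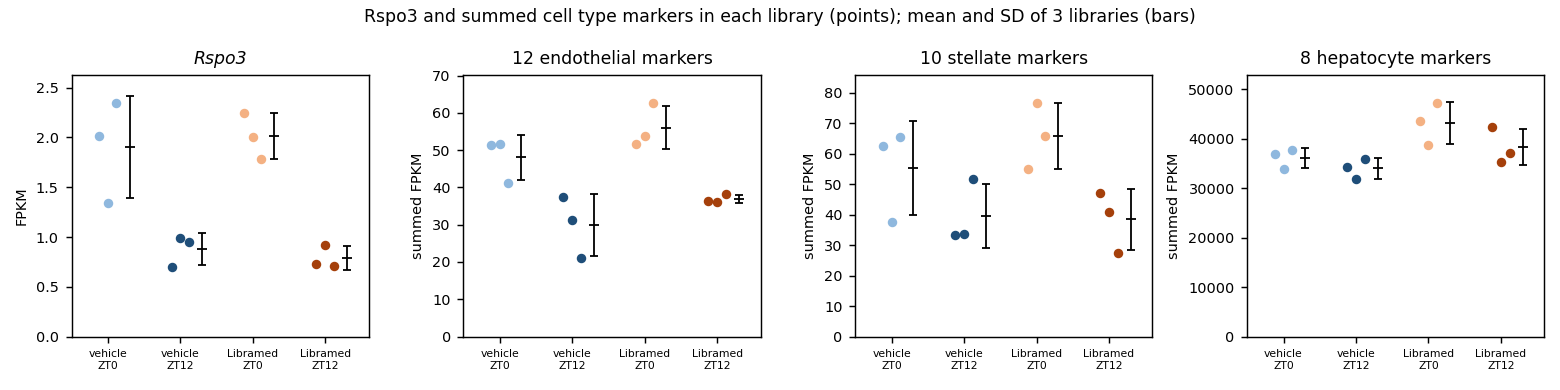
Rspo3 (FPKM) and the summed FPKM of endothelial, stellate and hepatocyte markers (y axes, from 0) in the 4 groups (x axis); each point is a library and the black bar is the mean with SD of 3 libraries. Rspo3 and the endothelial sum are lower in every ZT12 library than in every ZT0 library, whereas the stellate and hepatocyte sums overlap between the times.

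The 3 genes whose log2 levels followed a member most closely over the 12 libraries were found by Pearson's r, as a description without a test. For Axin2 they were Sntb1 (r = 0.95), Lgalsl (r = 0.91) and Pdgfc (r = 0.91). For Glul they were Aaas (r = 0.87), the joint row of Ahnak and Mir6367 (r = 0.81) and Tefm (r = 0.81). The libraries share their time groups, which enter these values.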

How the data were processed

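Total liver RNA of 12 samples was extracted with TRIzol and made into TruSeq libraries. The authors deposited a single gene table in FPKM, with a column for each library. The processing notes of the submitters name TopHat and Cuffnorm with mm10 and GRCm38, whereas the methods of the study describe ELAND alignment of single-end reads to mm10 and call the unit RPKM, so which tool made the table is not settled here. No counts or read totals were used, so the depth is unknown apart from relative values, and no counting interval is given.

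Of 24138 lines, 289 repeated a symbol, and each symbol was represented by its line of highest mean. Joined symbols were matched by their parts. Symbols with a mean below 1 FPKM were left out. log2(FPKM + 1) was tested two-sided with limma (version 3.58.1, R 4.3.3), using a moderated fit with a mean-variance trend. Pairwise comparisons used the 6 libraries compared, and those over both treatments, over both times and of the interaction used all 12. Single genes were also tested by exact permutation within treatment or time in Python 3.11.15 with scipy 1.17.1. With 3 libraries against 3 the exact permutation test cannot go below 0.1, so its p is given only over all 12. Genes were located in GENCODE M21 and promoters taken from RefSeq. The labels call the libraries of a group biological replicates without naming separate mice, so p-values measure the spread between these libraries.

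The members and lists were chosen with earlier results of these data known. All 10 members are named. From each pathway list at most 3 genes that rose and 3 that fell were named, those with the smallest adjusted p below 0.05, and from marker lists the summed FPKM and genes at 0. A gene that this rule would name is not reported here. For Axin2 and Glul the 3 genes most like them were named. Alternatives were the pseudocount, the minimum level, scaling, the replicate block, the fit over 12 libraries, limma without trend, a Cyber-T style test, the unadjusted p, and leaving out each library.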

Additional observations from a re-analysis of the deposited data

How the results depend on the processing

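The number of members called in vehicle-treated mice, 1 in the main fit, became 0 with no minimum level, with the fit over all 12 libraries and with the Cyber-T style test, was between 0 and 0 when each library was left out in turn, and was 4 by unadjusted p. The number in Libramed-treated mice, also 1, became 0 with no minimum and with a minimum mean of 5 FPKM (7 members tested, without Lgr5), was between 0 and 1 when each library was left out, and was 3 by unadjusted p. Over both treatments the 3 calls became 1 with a minimum mean of 5 FPKM, which leaves Axin2 and Lgr5 untested. Same-numbered libraries did not deviate together more than others did (18 pairs, r between −0.279 and 0.341, 4 above 0.1). Pairs of other numbers had r between −0.410 and 0.361 (36 pairs, 14 above 0.1). No pairing by number was seen, though a correlation over all genes could miss one that touches few of them. With the replicate block, 0 members were called in vehicle and 1 in Libramed, Rnf43 in place of Lgr5 (limma adjusted p = 0.0458 and 0.0666), and calls over all genes went from 1020 to 279 in vehicle and from 1212 to 709 in Libramed. Over all genes, calls in vehicle also went to 459 with the Cyber-T style test, 515 with no minimum and 1539 with the fit over 12 libraries, and in Libramed to 621 with the Cyber-T style test and 639 with no minimum. Oat over both treatments was called with quantile normalization (−0.42, limma adjusted p = 0.0177). Among the values recomputed under the alternatives, signs reversed in fits that left out 1 library, and the reversed values were not called. Over such fits the log2 fold changes ran as follows: Tbx3 with time in Libramed from −0.38 to 0.042, Oat with time in Libramed from −0.27 to 0.055 (0.043 and 0.044 in the other reversals), Glul with treatment at ZT0 from −0.046 to 0.21, Tbx3 with treatment at ZT12 from −0.074 to 0.59, the interaction of Glul from −0.28 to 0.093 and of Lgr5 from −0.30 to 0.024, Glul with treatment over both times from −0.058 to 0.12 (below 0 in 7 of the 12 fits), Rnf43 with treatment over both times from −0.057 to 0.18, and over both treatments Slc1a2 from −0.022 (−0.0063 in its other reversal) to 0.17 and Znrf3 from −0.0054 to 0.076. The cause was not tested. The depth per library is unknown, which limits what can be said of Axin2, Lgr5 and Znrf3, all near 1 FPKM.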

Other observations

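Levels of the members were also compared within groups. Deviations of log2(FPKM + 1) from the group means were correlated over the 12 libraries for the 45 pairs of members, with exact permutation of libraries within groups. Of the 45 pairs 29 were positive, 7 had an exact p below 0.05 and 0 had a Benjamini-Hochberg adjusted p below 0.05, by Pearson's r or Spearman's rho, nor did any after the 2 farthest libraries were left out. The highest r was that of Slc1a2 and Znrf3 (r = 0.81, exact p = 0.00772, adjusted p = 0.174, rho = 0.74, exact p = 0.0193; r = 0.75 without the 2 farthest libraries). The smallest exact p was that of Lect2 and Rnf43 (r = −0.69, exact p = 0.0054, adjusted p = 0.174, rho = −0.79, exact p = 0.0054; r = −0.76 without the 2 farthest libraries).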
